A study of Mus musculus with 16 samples.

Results

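Much of the sodium and water absorbed by the small intestine passes through sodium-hydrogen exchangers of the brush border, which bring sodium into the enterocyte in return for a proton. Transcripts of 7 genes of this system were followed in differentiated jejunal enteroids, which are epithelial cultures grown from crypts. They were the exchangers Slc9a2 (NHE2), Slc9a3 (NHE3) and Slc9a8 (NHE8) and the scaffolds Slc9a3r1 (NHERF1), Slc9a3r2 (NHERF2), Pdzk1 (NHERF3) and Pdzd3 (NHERF4). They were chosen by name, and all 7 were found among the 54532 genes of the deposited tables. NHE3 is the main exchanger of the villus brush border, NHE2 is another apical isoform, and NHE8 is found at the apical surface and on intracellular membranes. The NHERF proteins are built of PDZ domains, which bind the last residues of transporters and receptors, and NHERF1 and NHERF2 are also tied to actin through ezrin. NHE3 cycles between recycling endosomes and the brush border, so that its activity is set by trafficking as well as by amount. Myosin Vb (MYO5B) is the motor that carries recycling vesicles toward the apical membrane, and its loss causes microvillus inclusion disease. Only RNA was measured here, not protein, location or transport.

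There were 4 groups of 4 cultures. The cultures of a group each came from a different mouse, as the study describes them. The cultures called iKO were Vil-CreERT2;Myo5b-flox/flox, in which a tamoxifen-activated Cre under the villin promoter removes Myo5b from epithelial cells. They were given either vehicle (PBS) or Compound-1, a synthetic agonist that prefers the lysophosphatidic acid receptor LPAR5, at 100 nM for 2 days of differentiation. The cultures called G519R were Vil-CreERT2;Myo5b-flox/G519R, in which Cre leaves only the point-mutant allele, and are labeled as untreated. The cultures of these 3 groups had all been exposed to 1 µM 4-OH-tamoxifen for 24 h in the dish. The labels call the controls only control and untreated. The study describes them in one place as flox/flox cultures carrying the same Cre and in another as healthy littermates. Loss of MYO5B, Cre activity and exposure to tamoxifen therefore cannot be told apart in any comparison with the controls.

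The libraries held 27804968 to 40101729 counts. Among the 7 genes Slc9a3r2 had the fewest, with 63 counts in its lowest library. Levels are given as CPM, which is counts scaled to a common library size after TMM correction, and levels of different genes are set side by side only as FPKM, which is per length. Myo5b itself was at 160 to 230 CPM in control, 101 to 169 CPM in iKO with vehicle, 87.2 to 149 CPM in iKO with Compound-1 and 136 to 173 CPM in G519R cultures. Its decrease passed the test in iKO with Compound-1 against control (log2 fold change -0.77, adjusted p = 0.0146, edgeR) and not in iKO with vehicle (-0.55, adjusted p = 0.0503). Without control culture 1, described next, Myo5b was called lower in iKO with vehicle and in G519R as well, and the call with Compound-1 was lost without Compound-1 culture 4. A count per gene cannot show the point mutation of the G519R cultures, which also carry a floxed allele that Cre removes. Their Myo5b log2 fold change against control was -0.33 with all controls, and the part of the removed allele in it was not tested. All 12 enterocyte markers had counts in every culture, and the 6 fibroblast markers summed to at most 0.956 CPM. Control culture 1 stood apart from the other controls. Its enterocyte markers summed to 3675 CPM against 13352 to 16593 CPM in the other 3 controls, and mitochondrially encoded genes held 6.41% of its counts against 9.07% to 10.4%. In the other groups they held 3.79% to 6.63%. Test results for the 7 genes that turn on this culture are given with and without it. Means of shares and ratios were not recomputed without it, and the part played by its makeup was not tested. In RNA from whole cultures, fewer cells of a type and less RNA per cell cannot be told apart.

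RefSeq (GRCm38.p6) promoter entries, 250 bases before to 50 after a start site, were matched for 6 of the 7 genes, in 8 entries, and Slc9a2 was not matched. The entries of the exchanger Slc9a3 and the scaffolds Slc9a3r1 and Pdzk1 are printed 5′ to 3′ on the strand of the gene, with matches to the 4 motifs searched in capitals. They are shown as the main exchanger, the scaffold that was higher in all 3 mutant groups and the scaffold with a lower mean level in 2 of them.
Slc9a3, chr13:74121163-74121462, plus strand: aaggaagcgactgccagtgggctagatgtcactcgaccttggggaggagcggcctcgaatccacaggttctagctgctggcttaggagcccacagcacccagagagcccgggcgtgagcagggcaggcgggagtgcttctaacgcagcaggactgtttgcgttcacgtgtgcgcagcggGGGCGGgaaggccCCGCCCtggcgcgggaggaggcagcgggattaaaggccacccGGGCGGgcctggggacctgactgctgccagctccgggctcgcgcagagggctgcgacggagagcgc
Slc9a3r1, chr11:115163091-115163390, plus strand: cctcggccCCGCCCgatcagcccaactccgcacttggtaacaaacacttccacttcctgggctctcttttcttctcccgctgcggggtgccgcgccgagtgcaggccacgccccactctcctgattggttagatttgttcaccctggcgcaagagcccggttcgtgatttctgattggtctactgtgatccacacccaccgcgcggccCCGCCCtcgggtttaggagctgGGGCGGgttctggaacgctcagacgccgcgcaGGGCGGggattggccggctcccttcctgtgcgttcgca
Pdzk1, first entry, chr3:96829815-96830114, plus strand: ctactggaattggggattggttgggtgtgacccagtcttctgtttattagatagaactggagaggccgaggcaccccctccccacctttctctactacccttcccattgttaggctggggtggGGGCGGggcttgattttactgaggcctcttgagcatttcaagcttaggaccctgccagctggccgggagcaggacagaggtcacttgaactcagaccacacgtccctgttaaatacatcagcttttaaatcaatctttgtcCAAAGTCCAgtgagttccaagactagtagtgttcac
The motifs were the GC box GGGCGG, a CDX-like motif TTTATNG, an HNF4-like motif CAAAGTCCA and a GATA-like motif AGATAA, each searched on both strands. The Slc9a3 entry held 3 GC boxes, the Slc9a3r1 entry held 4, the Slc9a8 entry 2 and the first Slc9a3r2 entry 4, where 35.7% of 32841 promoter entries of the same length held at least 1. GC content was 68.7% for Slc9a3 and 64.3% for Slc9a3r1, against a median of 52.7% over all entries. The first Pdzk1 entry had a GC content of 51.0%, a single GC box and the HNF4-like motif on the plus strand from base 265 of the entry, after the start site. That motif was found in 0.475% of all entries. The second entry of Slc9a3r2 held a GATA-like motif, found in 11.2% of all entries. No CDX-like motif, which 10.9% of all entries held, was in any of the 8. The Pdzd3 entry and the second entry of Pdzk1 held none of the 4 motifs.

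Among the exchangers, Slc9a2 (chr1:40680574-40769273, plus strand) had the largest fold change of the 7 genes in each comparison with control. The control cultures had 62.2, 31.4, 39.1 and 30.8 CPM of Slc9a2. The iKO cultures with vehicle had 101, 84.9, 113 and 73.4 CPM, all above the highest control. The G519R cultures had 67.8, 78.1, 95.02 and 65.0 CPM, also all above the highest control, which was culture 1. The iKO cultures with Compound-1 had the widest range, at 124, 76.7, 158 and 149 CPM, and none of them overlapped with control. Slc9a2 rose 2.29-fold in iKO with vehicle (log2 fold change 1.20 ± 0.24 SE, n = 4 and 4, adjusted p = 0.00524, edgeR). In G519R it rose 1.87-fold (log2 0.90 ± 0.23, adjusted p = 0.0183, edgeR), and in iKO with Compound-1 3.10-fold over control (log2 1.63 ± 0.28, adjusted p = 0.00474, edgeR). The G519R call did not hold without some single cultures. The adjusted p was between 0.0534 and 0.0564 without control culture 2, 3 or 4 or G519R culture 3, with log2 fold changes of 0.78 to 0.88.

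Slc9a3, the main apical exchanger, lies at chr13:74121457-74169442 on the plus strand and starts within the sequence printed above. The controls had 26.6, 51.3, 47.5 and 40.4 CPM of Slc9a3, with culture 1 the lowest. The iKO cultures with vehicle had 75.3, 59.7, 106 and 57.1 CPM, and the lowest of them lay above the highest control. In G519R they were 43.4, 48.3, 62.3 and 41.8 CPM, and 3 of the 4 fell within the control range. With Compound-1 they were 64.7, 39.4, 61.2 and 67.7 CPM, with culture 2 within the control range. Slc9a3 rose 1.81-fold in iKO with vehicle (log2 0.85 ± 0.24, adjusted p = 0.0259, edgeR). The call was lost without control culture 4 (adjusted p = 0.0677), iKO vehicle culture 1 (0.0591) or iKO vehicle culture 3 (0.0706), and with an offset for the trend on gene length (log2 0.74, adjusted p = 0.0565). In G519R the log2 fold change was 0.24 (95% interval -0.22 to 0.70, adjusted p = 0.428) and with Compound-1 against control it was 0.49 (-0.02 to 1.00, adjusted p = 0.133). Without Compound-1 culture 2 the latter passed the test, at 0.64 with an adjusted p of 0.0483.

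Slc9a8 (chr2:167421712-167477000, plus strand) stayed between 57.6 and 70.5 CPM in the 12 mutant cultures. Its levels ran from 57.6 to 63.3 CPM in G519R, from 59.4 to 70.5 CPM in iKO with vehicle and from 61.2 to 67.9 CPM in iKO with Compound-1. The controls had 67.1, 47.6, 42.8 and 41.2 CPM, so that culture 1 lay within or above the mutant groups and the other 3 lay below every mutant culture. With all controls no difference passed the test, and the log2 fold changes were 0.39 in iKO with vehicle (adjusted p = 0.106), 0.26 in G519R (0.245) and 0.35 with Compound-1 (0.141). Without control culture 1 all 3 passed, at 0.56 (adjusted p = 0.00223), 0.47 (0.00129) and 0.55 (0.00379). More genes of all kinds passed in those fits. Called higher were 3767 of 17783, 4244 of 17647 and 4056 of 17718 genes tested. With all controls these were 2427 of 17951, 2341 of 17829 and 2820 of 17937. In a single fit of the 4 groups with all controls, Slc9a8 passed in iKO with vehicle (0.38, adjusted p = 0.0369) and with Compound-1 (0.35, adjusted p = 0.0468).

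Among the scaffolds, Slc9a3r1 (chr11:115163341-115181181, plus strand), which links NHE3 and CFTR to ezrin, was by far the most abundant. Its values in control were 154, 239, 218 and 214 CPM. In iKO with vehicle they were 403, 347, 368 and 353 CPM, and in G519R they were 288, 313, 390 and 313 CPM. With Compound-1 they were 355, 434, 587 and 445 CPM. No culture of the 3 mutant groups overlapped with a control. Slc9a3r1 rose 1.79-fold in iKO with vehicle (log2 0.84 ± 0.16, adjusted p = 0.00487, edgeR), 1.58-fold in G519R (log2 0.66 ± 0.16, adjusted p = 0.0151) and 2.21-fold with Compound-1 over control (log2 1.14 ± 0.20, adjusted p = 0.00497). These 3 calls held without any single culture.

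Pdzk1 (chr3:96829284-96870926, plus strand), a scaffold with several PDZ domains that binds NHE3 and other apical transporters, had a different pattern. The controls had 3.86, 16.6, 12.0 and 11.1 CPM of Pdzk1, with culture 1 again the lowest. Over the iKO cultures with vehicle the values spread from 5.34 to 20.8 CPM and overlapped with the controls. In G519R they were 5.88, 6.83, 7.02 and 3.68 CPM, and with Compound-1 they were 7.27, 6.26, 3.02 and 2.65 CPM. All 8 of these lay below the lowest of control cultures 2, 3 and 4. With all controls no difference passed the test. The log2 fold changes were 0.12 in iKO with vehicle (95% interval -0.88 to 1.13, adjusted p = 0.869), -0.89 in G519R (adjusted p = 0.112) and -1.18 with Compound-1 (adjusted p = 0.0718). Without control culture 1 the gene passed as lower in G519R (-1.14, adjusted p = 0.00268) and with Compound-1 against control (-1.44, adjusted p = 0.0102). In those fits 3902 of 17647 and 3403 of 17718 genes tested were lower. With all controls these were 2437 of 17829 and 2455 of 17937. DESeq2 called Pdzk1 lower with Compound-1 against control with all controls in (-1.16, adjusted p = 0.0271). The exons of Pdzk1 share 1333 of their 3556 bases with Gpr89 on the opposite strand, and whether reads were counted by strand is not given in the sources used here. Gpr89 had 54.9 to 100.2 CPM in control and was lower in G519R (log2 -0.63, adjusted p = 0.0303) and with Compound-1 (-0.59, adjusted p = 0.0428), and its part in the Pdzk1 counts was not tested. The Gpr89 calls were lost in 6 of 8 fits in G519R and 7 of 8 with Compound-1 when 1 culture was left out.

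The other scaffolds did not pass the test in any comparison. Pdzd3 (chr9:44247307-44251471, minus strand), which is found in the brush border with guanylate cyclase C, had 9.09, 19.4, 16.7 and 17.2 CPM in control, 15.2 to 24.8 CPM in iKO with vehicle, 15.6 to 19.7 CPM in G519R and 15.0 to 21.6 CPM with Compound-1. Its log2 fold changes against control were 0.37 (95% interval -0.15 to 0.90), 0.14 (-0.34 to 0.62) and 0.26 (-0.27 to 0.79). Slc9a3r2 (chr17:24639282-24650305, minus strand), which couples LPAR5 and NHE3 to signaling proteins, was near the bottom of the range in every group, at 2.09 to 3.65 CPM over the 16 cultures. Its log2 fold changes were 0.21 (-0.32 to 0.74), 0.32 (-0.16 to 0.80) and 0.26 (-0.31 to 0.83).

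**Figure D1:**
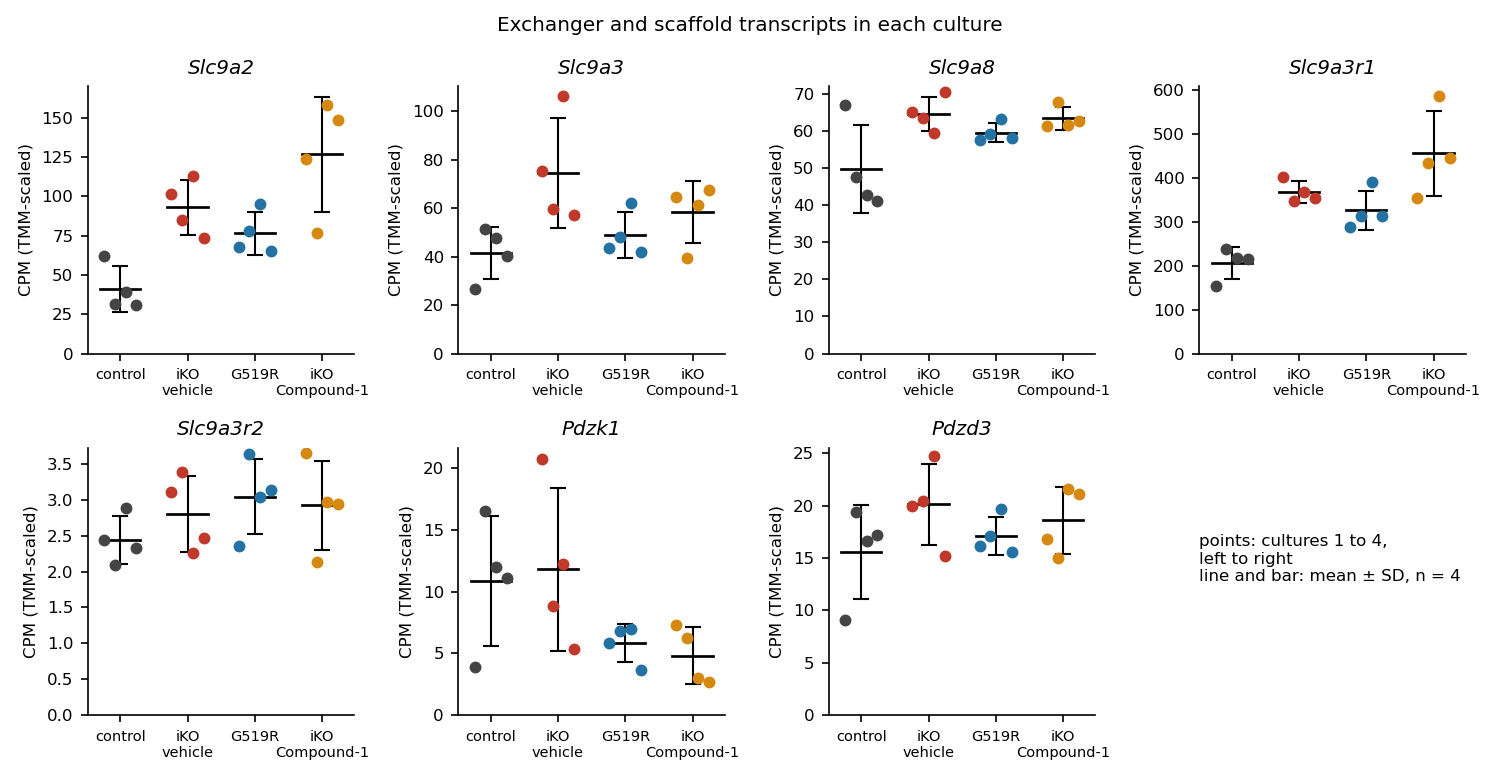
Level of each of the 7 genes in CPM (y axis, from 0) in each culture of the 4 groups (x axis), with the line and bar showing the mean and SD of 4 cultures. Slc9a2 and Slc9a3r1 lie above every control in all 3 mutant groups, and control culture 1, the leftmost gray point, is the highest control for Slc9a2 and Slc9a8 and the lowest for Slc9a3, Slc9a3r1, Pdzk1 and Pdzd3.

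Counted by comparison, the 3 sets of calls against the shared controls were as follows, and since they share the same 4 control cultures they are not independent of each other. In iKO with vehicle, 3 of the 7 genes were higher (Slc9a2, Slc9a3 and Slc9a3r1) and none lower, where 13.5% of the 17951 genes tested were higher and 13.8% lower. The same 3 genes did not overlap between the groups, where 26.9% of all genes tested did not. In G519R, 2 of the 7 were higher (Slc9a2 and Slc9a3r1) and none lower, against 13.1% and 13.7% of 17829 genes, and those 2 did not overlap, against 27.4% of all genes. With Compound-1, 2 of the 7 were higher than in control (Slc9a2 and Slc9a3r1) and none lower, against 15.7% and 13.7% of 17937 genes. The groups did not overlap for those 2 genes, against 27.9% of all genes. All 7 genes passed the filter on low counts in every comparison. The median log2 fold change of the 7 was 0.39 in iKO with vehicle, 0.26 in G519R and 0.35 with Compound-1, where the medians of all genes tested were -0.01, -0.05 and -0.05.

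Whether activating LPAR5 moved these transcripts was asked by setting iKO with Compound-1 against iKO with vehicle. None of the 7 genes passed the test, where edgeR called 0% of 18037 genes, 1355 genes had an unadjusted p under 0.05 and DESeq2 called 91 genes. None of the 7 was free of overlap, where 2.86% of all genes were. Pdzk1 had the largest difference of the 7, with a log2 fold change of -1.33 (95% interval -2.29 to -0.37, unadjusted p = 0.0109, adjusted p = 0.560, edgeR), and 2 of its 4 Compound-1 cultures lay below the lowest vehicle culture. Slc9a2 stood at 0.41 (-0.06 to 0.89, adjusted p = 0.729) and 3 of its 4 Compound-1 cultures were above the highest vehicle culture. Slc9a3r1 stood at 0.28 (-0.08 to 0.63) and Slc9a3 at -0.39 (-0.88 to 0.10). For Slc9a8 the interval was narrow, at -0.06 (-0.31 to 0.19). Pdzd3 stood at -0.15 (-0.56 to 0.27) and Slc9a3r2 at 0.02 (-0.56 to 0.60).

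G519R was set against iKO with vehicle to compare the 2 models, whose Myo5b levels are given above. None of the 7 genes passed the test, where edgeR called 0.00557% of 17943 genes, a single gene. At an unadjusted p under 0.05 there were 772 genes, and DESeq2 called 4. None of the 7 was free of overlap, against 1.85% of all genes. The largest differences were in Pdzk1 (log2 -1.01, 95% interval -1.81 to -0.21, unadjusted p = 0.0179) and Slc9a3 (-0.61, -1.04 to -0.17, unadjusted p = 0.0107), both with an adjusted p of 0.838 by edgeR. In 3 of 4 G519R cultures Slc9a3 was below the lowest iKO culture. The difference in Slc9a3 between these models thus did not pass the test.

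**Figure D2:**
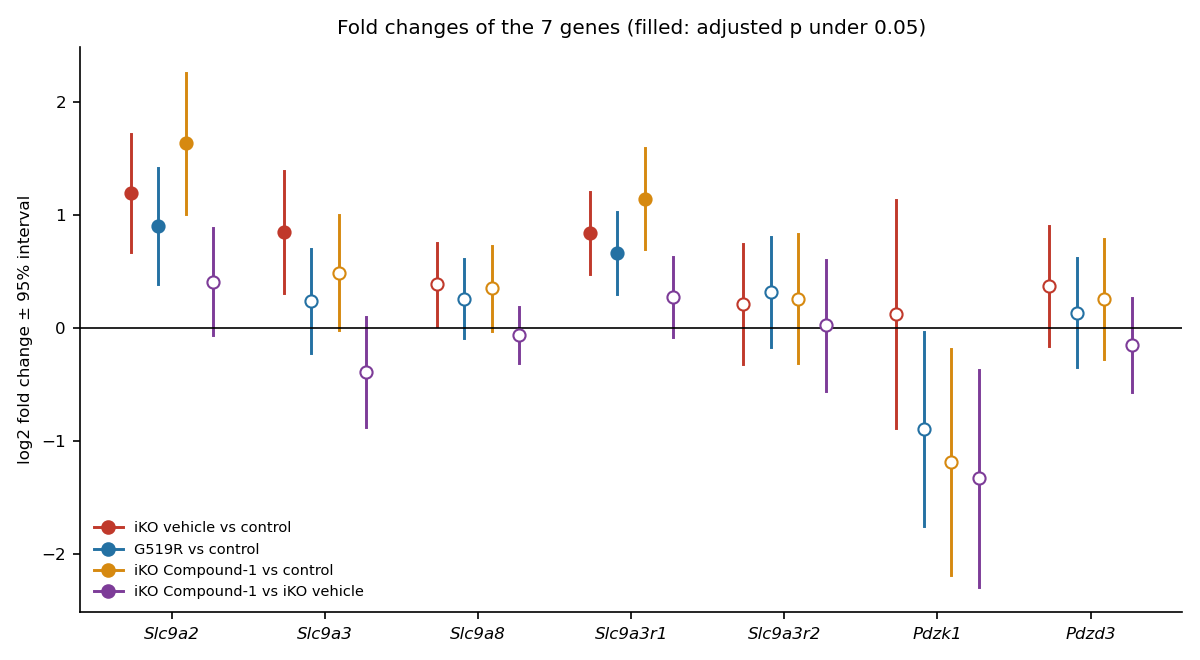
Log2 fold change of each gene (y axis) with its 95% interval in 4 comparisons (colors), filled where the adjusted p of edgeR was under 0.05. Slc9a2 and Slc9a3r1 are filled in the 3 comparisons with control, Slc9a3 is filled in iKO with vehicle only, and no gene is filled for Compound-1 against vehicle.

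Per length, the exchangers held different shares of their sum in the groups, which is given as a description. In control, Slc9a3 held 40.6% ± 11.9 of the summed FPKM of the 3 exchangers, Slc9a2 30.6% ± 8.1 and Slc9a8 28.8% ± 4.3 (SD, n = 4). In control culture 1 Slc9a2 held 42.2% and Slc9a3 22.9%, whereas Slc9a3 held 45.1% to 48.9% in the other 3 controls. The iKO cultures with vehicle had nearly equal shares of Slc9a2 and Slc9a3, 39.2% ± 2.0 and 39.3% ± 4.7. In G519R Slc9a2 held 41.4% ± 1.3 and Slc9a3 33.5% ± 1.3. With Compound-1 Slc9a2 held 50.1% ± 5.6 and Slc9a3 29.6% ± 2.3. The FPKM ratio of Slc9a2 to Slc9a3 ran from 0.835 to 1.12 in iKO with vehicle, from 1.20 to 1.28 in G519R and from 1.51 to 2.04 with Compound-1, without overlap among these 3 groups. In control it ran from 0.483 to 1.84, with culture 1 at the top, and its range without that culture was not computed. In control cultures 2, 3 and 4 Slc9a2 held 23.6%, 29.5% and 27.1% of the exchanger sum. These lay below its lowest share in any mutant culture, 36.7% in iKO with vehicle. The ratio was chosen after the levels were known.

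Among the scaffolds, Slc9a3r1 held 90.7% ± 1.4 of the summed FPKM in control, 93.3% ± 1.2 in iKO with vehicle, 94.0% ± 0.46 in G519R and 95.4% ± 0.90 with Compound-1. Pdzd3 was next in every group, with 5.90% ± 0.74 in control and 3.47% ± 0.55 with Compound-1. The Pdzk1 share was 2.46% ± 0.88 in control, 1.58% ± 0.77 in iKO with vehicle, 0.915% ± 0.22 in G519R and 0.592% ± 0.37 with Compound-1. Slc9a3r2 held 0.545% to 0.946% in the group means, so its order relative to Pdzk1 in G519R and with Compound-1 was within the spread between cultures. Transcripts of Slc9a3r1 outnumbered those of Slc9a3 per length by 14.5 ± 1.6 to 1 in control, 14.9 ± 3.5 to 1 in iKO with vehicle, 19.2 ± 1.5 to 1 in G519R and 23.4 ± 7.4 to 1 with Compound-1. In G519R the lowest such ratio, 17.9, was above the highest control, 16.5. The ratios in iKO with vehicle, 9.88 to 17.7, and with Compound-1, 15.7 to 31.5, overlapped with the control range of 13.1 to 16.5.

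**Figure D3:**
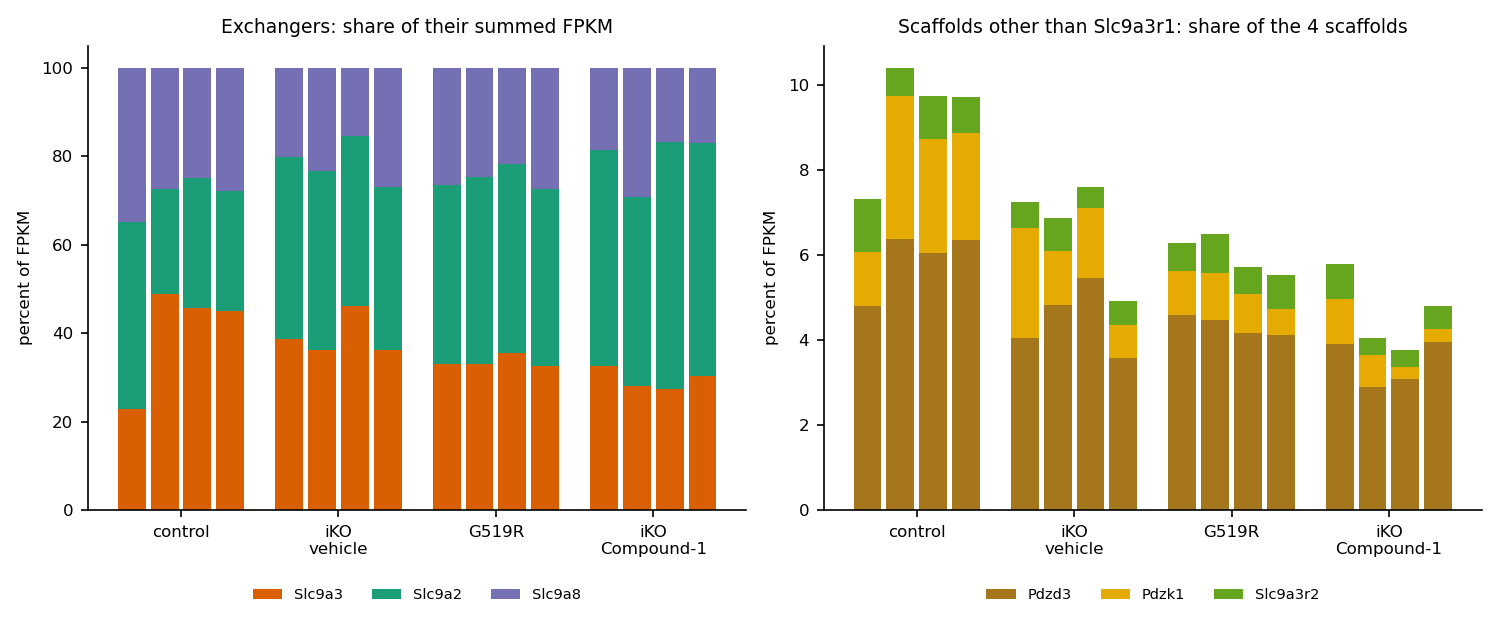
Percent of FPKM (y axis, from 0) in each culture (bars, cultures 1 to 4 from left to right in each group) held by the 3 exchangers of their own sum, left, and by Pdzd3, Pdzk1 and Slc9a3r2 of the sum of the 4 scaffolds, right. Slc9a2 takes the largest exchanger share in every Compound-1 culture, and the Pdzk1 share is at most 1.11% in G519R and 1.05% with Compound-1.

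Vil1, which encodes villin, a bundling protein of microvillus actin, is a structural marker of the same brush border and itself rose 2.12-fold in iKO with vehicle (log2 1.08, adjusted p = 0.00380, edgeR), 1.87-fold in G519R (log2 0.90, adjusted p = 0.00622) and 2.10-fold with Compound-1 (log2 1.07, adjusted p = 0.00541). Set against Vil1, the difference in log2 CPM of Slc9a3r1 was -0.90 ± 0.04 in control, -1.13 ± 0.21 in iKO with vehicle, -1.14 ± 0.04 in G519R and -0.84 ± 0.15 with Compound-1 (SD, n = 4). For Slc9a3 the difference was -3.23 ± 0.13 in control, -3.47 ± 0.29 in iKO with vehicle, -3.88 ± 0.12 in G519R and -3.81 ± 0.32 with Compound-1, so Slc9a3 was not above control relative to Vil1 in the mean of any mutant group. Pdzd3 was at -4.66 ± 0.20 in control and between -5.34 and -5.44 in the mean of each mutant group. Slc9a2 was at -3.27 ± 0.75 in control, -3.12 ± 0.11 in iKO with vehicle, -3.24 ± 0.14 in G519R and -2.71 ± 0.33 with Compound-1. All 12 mutant cultures lay within the control range of -3.84 to -2.18, but the upper end of that range was control culture 1. That culture had the highest Slc9a2 (62.2 CPM) and the lowest Vil1 (281 CPM) of the controls. The mean and range of Slc9a2 against Vil1 without it were not computed. Since Vil1 itself was higher in the mutant groups, a gene that did not change lies lower on this scale.

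The enterocyte markers as a whole moved in both directions. For the marker counts that follow, 13.5% of all genes tested were higher and 13.8% lower in iKO with vehicle. These shares were 13.1% and 13.7% in G519R, and 15.7% and 13.7% with Compound-1 against control. Of the 12 enterocyte markers measured, 3 were higher in iKO with vehicle (Vil1, Alpi and Anpep) and none lower. In G519R 2 were higher (Vil1 and Anpep) and Sis, the sucrase-isomaltase gene, was lower (log2 -1.10, adjusted p = 0.0464, edgeR). With Compound-1 against control 3 were higher and 4 lower, among them Fabp1 (log2 -2.38, adjusted p = 0.0225) and Fabp2 (-2.11, adjusted p = 0.0159), which bind fatty acids in the cytosol, and Sis and Mep1a. These calls depended on single cultures. With 1 left out at a time the number called lower ran from 1 to 5 with Compound-1 and from 0 to 5 in G519R, Fabp1 with Compound-1 lost its call in 6 of 8 fits and Sis in G519R in 7 of 8. The summed level of the 12 was 6221 to 9681 CPM in G519R, 6886 to 13447 CPM in iKO with vehicle and 6239 to 8509 CPM with Compound-1. The 6 stem and proliferating cell markers summed to 3015 to 7016 CPM in control and 775 to 3216 CPM over the other cultures. Olfm4 was the largest part of this sum, with means of 3743 CPM in control, 776 CPM in iKO with vehicle, 1212 CPM in G519R and 673 CPM with Compound-1. It was lower in all 3 comparisons with control, and in G519R and with Compound-1 the other 5 markers were not called. The median log2 fold change of the 6 was -0.30 in iKO with vehicle, 0.07 in G519R and -0.30 with Compound-1. Among 8 goblet and Paneth cell markers, Fcgbp and Clca1 were higher in all 3 comparisons, Itln1 was lower in all 3, Lyz1 was lower in iKO with vehicle and G519R, and Tff3 was lower in G519R. The lower calls depended on single cultures. With 1 left out at a time, the number of the 8 called lower ran from 0 to 5 in iKO with vehicle, 0 to 5 in G519R and 0 to 3 with Compound-1. The number called higher ran from 2 to 3, 1 to 3 and 2 to 3. Of the 6 immune cell markers only Cd68 passed, in iKO with vehicle, and at most 11.2 CPM were summed over them in any culture. The fibroblast marker Col1a1 passed in G519R on 6 to 17 counts against 0 to 5 in control. With 1 culture left out, no immune cell marker was higher in iKO with vehicle in 4 of 8 fits. No fibroblast marker was higher in G519R in 6 of 8 fits. The part of these markers in the results for the 7 genes was not tested.

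Of 9 other SLC9 genes, 4 or 5 passed the filter, depending on the comparison. Slc9a4 (NHE4), a basolateral isoform, was at 2.56 to 3.84 CPM in control and rose 2.49-fold in iKO with vehicle (log2 1.31, adjusted p = 0.00379, edgeR), 2.57-fold in G519R (log2 1.36, adjusted p = 0.00473) and 8.50-fold with Compound-1 (log2 3.09, adjusted p = 0.00461). The Slc9a4 levels with Compound-1 spread from 8.27 to 56.6 CPM, and the lowest lay within the range of iKO with vehicle, 5.58 to 9.98 CPM. Slc9a5 rose in G519R (log2 0.68, adjusted p = 0.0281). None of the list was lower in any comparison. Of all genes tested, 13.5% were higher and 13.8% lower in iKO with vehicle, 13.1% and 13.7% in G519R, and 15.7% and 13.7% with Compound-1 against control.

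Of 18 regulators and linkers of NHE3, 7 were higher in iKO with vehicle, 4 in G519R and 8 with Compound-1 against control, and 0, 1 and 2 were lower. Of all genes tested, 13.5%, 13.1% and 15.7% were higher in these comparisons, and 13.8%, 13.7% and 13.7% were lower. Ezr, the ezrin that joins NHERF1 to actin, was at 305 to 410 CPM in control and rose 2.16-fold in iKO with vehicle (log2 1.11, adjusted p = 0.00181, edgeR), 1.86-fold in G519R (log2 0.89, adjusted p = 0.00484) and 2.45-fold with Compound-1 (log2 1.29, adjusted p = 0.00398). The related linker Msn rose in iKO with vehicle (log2 2.41, adjusted p = 0.0345) and with Compound-1 (5.06, adjusted p = 0.00830) from 0 to 9 counts in control. With Compound-1 it spread from 9 to 541 counts, and the lowest of these cultures, at 0.282 CPM, was no higher than the highest control. Rdx, the third linker of that family, was lower with Compound-1 (-1.75, adjusted p = 0.0326). Lpar5, the receptor at which Compound-1 is aimed, rose 1.71-fold in iKO with vehicle (log2 0.77, adjusted p = 0.0308) and 1.84-fold with Compound-1 over control (log2 0.88, adjusted p = 0.0203), while in G519R it was at 0.58 (adjusted p = 0.0634). With 1 culture left out at a time, the Lpar5 calls in iKO with vehicle and with Compound-1 were each lost in 5 of 8 fits (adjusted p up to 0.0884 and 0.0622), and without control culture 1 Lpar5 passed in G519R too (0.87, adjusted p = 0.000391). Prkaca, the catalytic subunit of protein kinase A, which inhibits NHE3, rose in iKO with vehicle (log2 0.79, adjusted p = 0.00244), in G519R (0.76, adjusted p = 0.00190) and with Compound-1 (0.77, adjusted p = 0.00434). Sgk2, a kinase of the SGK family, rose in iKO with vehicle (log2 1.03, adjusted p = 0.0453) and with Compound-1 over control (1.67, adjusted p = 0.00965), and Compound-1 against vehicle did not pass for it (0.61, adjusted p = 0.656). Dpp4, a brush border peptidase found in complex with NHE3, was lower in G519R (-0.74, adjusted p = 0.00882) and with Compound-1 (-1.24, adjusted p = 0.0143). With 1 culture left out at a time, Msn in iKO with vehicle and Rdx with Compound-1 each lost their call in 6 of 8 fits. The median log2 fold change of the 18 was 0.39 in iKO with vehicle, 0.19 in G519R and 0.33 with Compound-1, where the medians of all genes tested were -0.01, -0.05 and -0.05. None of the 18 passed for Compound-1 against vehicle or for G519R against iKO, where Ezr stood at 0.16 and -0.21 and Lpar5 at 0.09 and -0.18.

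Of 11 apical proteins that bind the NHERF scaffolds, Slc26a3 (DRA), the chloride-bicarbonate exchanger that works beside NHE3 in neutral salt absorption, was lower in all 3 comparisons with control. It was at 85.9 to 159 CPM in control and fell by 0.96 on the log2 scale in iKO with vehicle (adjusted p = 0.0128, edgeR), by 1.26 in G519R (adjusted p = 0.00411) and by 0.89 with Compound-1 (adjusted p = 0.00798). Against control, iKO with vehicle had it as the only one of the 11 to pass, although DESeq2 called 2 of them higher. In G519R Abcg2, an efflux pump of the apical membrane (-0.88, adjusted p = 0.0113), and Cftr, the chloride channel (-0.85, adjusted p = 0.0451), were lower as well. Cftr had a median of 229 CPM in control but 533 CPM in control culture 1, against 161 to 174 CPM in G519R. With 1 culture left out, the number of the 11 called lower in G519R ran from 2 to 3. With Compound-1 against control Abcg2 was lower (-0.74, adjusted p = 0.0267) and Pdzk1ip1, which encodes a small membrane partner of PDZK1, was higher (log2 1.64, adjusted p = 0.0203). These 2 calls were lost in 5 and 3 of 8 fits with 1 culture left out. Beside the counts for these 11 genes, 13.8% of all genes tested were lower in iKO with vehicle, 13.7% in G519R and 13.7% with Compound-1 against control. The shares higher were 13.5%, 13.1% and 15.7%.

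The protons that the apical exchangers carry out, and bicarbonate, are made in the cell by carbonic anhydrase. Of 8 genes of sodium exit and acid-base transport, 7 passed the filter. In iKO with vehicle, Car2, a cytosolic carbonic anhydrase, rose 2.49-fold (log2 1.31, adjusted p = 0.0163, edgeR) and Slc4a2, a basolateral chloride-bicarbonate exchanger, 1.72-fold (log2 0.79, adjusted p = 0.00221). The Car2 call was lost in 2 of 8 fits with 1 culture left out. In G519R only Slc4a2 was higher (log2 0.74, adjusted p = 0.00289). With Compound-1 against control Slc4a2 (log2 1.12, adjusted p = 0.00596) and Car2 (log2 1.23, adjusted p = 0.00852) were higher. None of these genes was lower in any comparison. Of all genes tested, 13.5% were higher in iKO with vehicle, 13.1% in G519R and 15.7% with Compound-1 against control, and 13.8%, 13.7% and 13.7% were lower.

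Correlations of log2 CPM between the 7 genes were taken across the 16 cultures, which share their groups. Slc9a3 and Pdzd3 had the highest correlation of log2 CPM among the 21 pairs, with a Pearson r of 0.87 and, after group means were taken away, 0.86. Slc9a2 and Slc9a3r1 had an r of 0.79 over all cultures but -0.03 within the groups, with all cultures in. Slc9a8 and Pdzd3 had an r of -0.77 within the groups. Pdzk1 had an r between -0.45 and 0.30 with each of the other 6. Control culture 1 had the lowest Slc9a3 and Pdzd3 and a high Slc9a8, and some of these values rested on it. Without it, an omission chosen after the data were seen, r within the groups was 0.81 for Slc9a3 and Pdzd3, 0.48 for Slc9a2 and Slc9a3r1 and -0.35 for Slc9a8 and Pdzd3. For Slc9a2 it went from 0.27 to 0.86 with Slc9a3, then the highest pair within the groups, from -0.0034 to 0.81 with Pdzd3 and from 0.36 to -0.40 with Slc9a8. With group means left in, the highest pair over the 15 remaining cultures was Slc9a2 and Slc9a3r1, with an r of 0.90. Slc9a3 and Pdzd3 then had an r of 0.81.

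**Figure D4:**
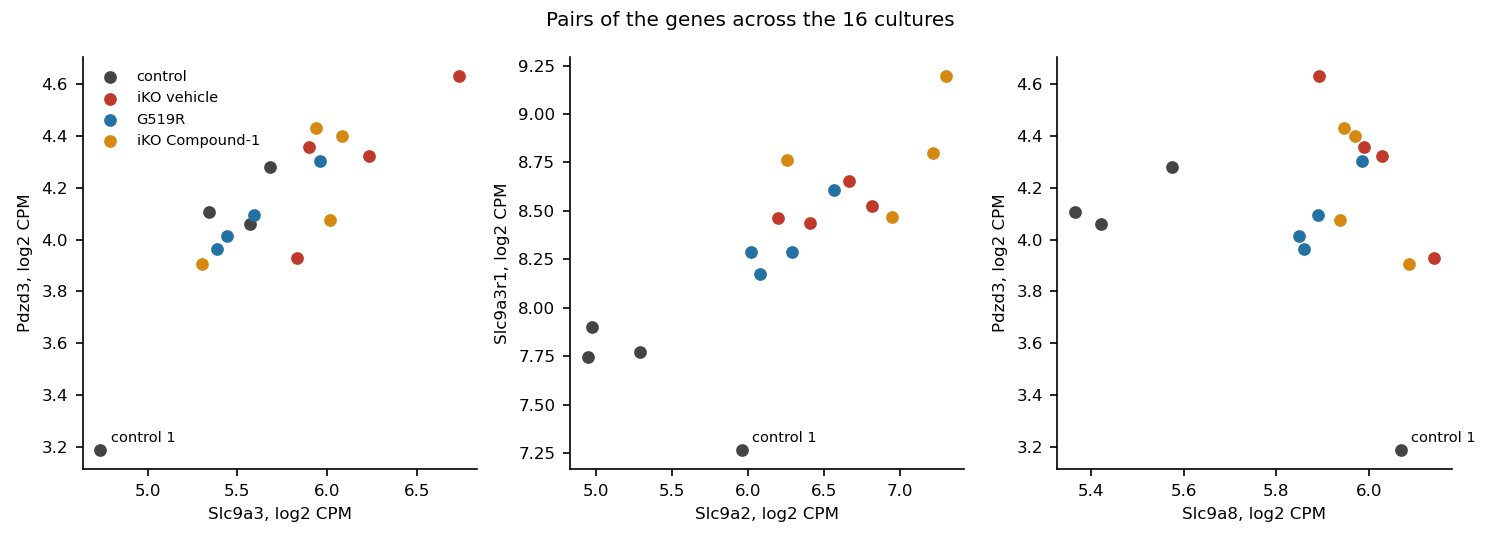
Log2 CPM of Pdzd3 against Slc9a3 (left), Slc9a3r1 against Slc9a2 (middle) and Pdzd3 against Slc9a8 (right), with 1 point per culture colored by group and control culture 1 marked. High Slc9a3 goes with high Pdzd3 within the groups (r = 0.86), the controls lie apart from the mutant groups in the middle panel, and the opposed Slc9a8 and Pdzd3 values within the groups (r = -0.77, or -0.35 without control culture 1) rest largely on that culture.

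The genes whose log2 CPM followed each of the 7 most closely over the 16 cultures, among genes with a mean of at least 1 CPM, were 21 different genes. For Slc9a2 they were Prkx (r = 0.99), Coro2a (0.98) and Tjp1 (0.98), the last of which encodes a tight junction protein. For Slc9a3 they were Nckap5 (0.95), Crat (0.93) and Clic5 (0.93), and for Pdzd3 Aldh3b1 (0.96), Fuca2 (0.94) and Tcn2 (0.94). For Slc9a8 they were Kdm4a (0.97), Tln2 (0.96) and Myc (0.95), and for Slc9a3r1 Tubb2a (0.99), Prr13 (0.98) and Klc4 (0.98). Pdzk1 was followed by Gm28370 (0.93), the apolipoprotein gene Apoc3 (0.91) and Dnah2 (0.91). Slc9a3r2, the gene with the fewest counts, had the weakest such partners, Zfp109 (0.80), Rfx2 (0.75) and Apobec3 (0.74).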

How the data were processed

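Poly-A RNA of 16 cultures was sequenced from libraries prepared by a commercial provider. The submitters' processing notes name STAR 2.5, HTSeq 0.6.1, TopHat and DESeq2 and the builds GRCm38 and mm10, without their order. The deposited counts are whole reads per gene. The deposited FPKM values are the authors' own, per gene length and per library size, and that size was 0.870 to 1.08 times the summed counts.

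Counts were tested here in R 4.3.3 with edgeR 4.0.16 (quasi-likelihood F test after TMM, Benjamini-Hochberg threshold 0.05), 2 groups at a time. A gene was kept if 2 or more of the libraries in a comparison had 10 or more counts of it. Standard errors are the log2 fold change over the square root of F. CPM uses TMM-scaled library sizes, and 0.5 counts were added for log2 CPM. Shares use FPKM. Scripts were tested on simulated data.

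The 7 genes and the gene lists were chosen with earlier results of these data known. Named one by one are the 7 genes, Ezr, Lpar5 and, of each list, the 2 called genes that rose and the 2 that fell most, with the 3 closest partners of each gene. The results of 2 list members are not reported here. Vil1, Myo5b, Gpr89 and the remaining list members were named after their values were seen. Where the cultures of a group differ only technically, p-values measure only that spread. Alternatives were DESeq2 1.42.0, its size factors, mitochondrially encoded genes left out, robust empirical Bayes, the replicate block, 1 fit of the 4 groups, filterByExpr, leaving the filter out, a gene length offset, limma 3.58.1 on log2(FPKM + 1) and log2(FPKM + 0.1), each culture left out, and an exact permutation test for each of the 7 genes, whose smallest p for 4 against 4 is 0.0286.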

Additional observations from a re-analysis of the deposited data

Results flagged for a closer look

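Of 64 groups of 4 values examined (levels and FPKM shares of the 7 genes, total counts and the mitochondrial percentage), 2 held a culture far from the other 3, and chance alone flags about 1 in 20 groups. In control culture 1, Slc9a3 held 22.9% of the FPKM of the 3 exchangers, where the other controls had 45.1% to 48.9%. In iKO with Compound-1, culture 2 had 29.2% for Slc9a8, where the others had 16.7% to 18.6%. This culture also had the lowest Slc9a2 and Slc9a3 levels of its group.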

How the results depend on the processing

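Of the 7 genes, Slc9a2 and Slc9a3r1 kept their direction and their side of the threshold under every alternative in iKO with vehicle and with Compound-1 against control, as did Slc9a3r1 in G519R. The others changed as follows. For Slc9a3 in iKO with vehicle, the log2 fold change was 0.74 with the gene length offset and 0.63 to 0.97 with cultures left out in turn. For Slc9a8 it was 0.38 (iKO with vehicle) and 0.35 (Compound-1 against control) in 1 fit of the 4 groups, and with cultures left out 0.31 to 0.56 in iKO, 0.18 to 0.47 in G519R and 0.27 to 0.55 with Compound-1. For Pdzk1 with Compound-1 against control it was -1.16 with DESeq2, -1.18 with no filter and -1.18 in 1 fit of the 4 groups, each past the threshold, so that 1 gene of the 7 was lower. With cultures left out, Pdzk1 ran from -1.46 to -0.91 with Compound-1, from -1.14 to -0.62 in G519R and from -0.30 to 0.40 in iKO with vehicle, where it reversed without control culture 1 or iKO vehicle culture 1. Slc9a2 in G519R ran from 0.78 to 1.21, Slc9a3 with Compound-1 from 0.35 to 0.64, Pdzd3 in G519R from -0.020 to 0.26, and for Compound-1 against vehicle Slc9a3r2 from -0.11 to 0.14 and Lpar5 from -0.0016 to 0.20.

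With cultures left out, the number of the 7 higher in G519R was 1 to 3, the number lower 0 to 1, and the number lower with Compound-1 0 to 1. Calls over all genes ran from 2963 to 7474 in iKO with vehicle, 2880 to 8146 in G519R and 2957 to 7459 with Compound-1. The highest of each of these ranges came without control culture 1. For G519R against iKO they ran from 0 to 2. For Compound-1 against vehicle DESeq2 called 91 genes and edgeR with no filter 12. For G519R against iKO they called 4 and 2, and limma with either pseudocount 0.

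Of the PDZ ligands in iKO with vehicle, 1 was higher with DESeq2 size factors, filterByExpr, robust empirical Bayes, the gene length offset and limma with either pseudocount, 2 with DESeq2 and 3 in 1 fit of the 4 groups, and 3 were lower in that fit and with the offset. In G519R 1 was higher with the offset. With Compound-1 2 were higher with DESeq2 size factors, 1 fit of the 4 groups and limma, 3 with DESeq2, and 4 were lower with DESeq2, no filter and the offset. Of the NHE3 regulators in G519R, 0 were lower in 1 fit of the 4 groups and 2 with the offset. Of the sodium exit genes in G519R, 3 were higher with DESeq2. With cultures left out, NHE3 regulators called higher ran from 2 to 10 in iKO, 3 to 8 in G519R and 5 to 9 with Compound-1, and lower from 0 to 1, 1 to 2 and 1 to 3. PDZ ligands called higher ran from 0 to 2 in iKO and 0 to 3 with Compound-1, and lower from 1 to 2 and 1 to 3. Sodium exit genes called higher ran from 1 to 5, 1 to 4 and 2 to 4, and lower from 0 to 1 in iKO. The cause was not tested.

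Same-numbered cultures of different groups did not meet the criterion for pairs, a correlation over 0.1 for every number. Their deviations from the group means correlated from -0.23 to 0.17 in iKO with vehicle against control. For G519R against iKO with vehicle the correlations were 0.146, 0.0545, 0.498 and 0.563, and 3 of the 4 G519R cultures correlated best with their own number. With the replicate number as a block, no call of the 7 genes changed, 2 sodium exit genes were higher in G519R, and all genes called in iKO with vehicle were 3647 against 4910. Under it Sis in G519R (adjusted p = 0.0730) and Fabp1 (0.0669) and Fabp2 (0.0629) with Compound-1 lost their calls. With 63 to 123 counts, Slc9a3r2 is the gene most limited by depth.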
